A study of Mus musculus with 18 samples.

Results

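The p53 pathway genes other than the p21 gene Cdkn1a are described here in 18 RNA sequencing libraries of mouse kidney. They were chosen by symbol, 10 rows of the 20825 genes in the deposited table, and are Trp53, Mdm2, Gdf15, Phlda3, Psrc1, Ccng1, Bax, Trp53inp1, Sesn2 and Btg2. The libraries came from C57BL/6 mice aged 11 weeks. In the unilateral ischemia and reperfusion (UIR) groups the pedicle of the right kidney was clamped for 45 minutes and then released while the left kidney stayed intact, and the reference mice had a sham operation. Each operation was followed for 1, 3 or 21 days, which gave 6 groups of 3 biological replicates. Which of the kidneys was sequenced and the sex of the mice are not stated in the labels. A clamped kidney beside an intact one is a model of local injury, since the intact kidney goes on filtering.

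The protein p53, encoded in mice by Trp53, is a transcription factor that DNA damage, hypoxia and other stresses stabilise. It switches on genes that halt the cell cycle, trigger apoptosis or help cells to withstand stress, and one of these, the ubiquitin ligase gene Mdm2, feeds back by marking p53 for degradation. Because much of its control acts on the protein, the level of Trp53 RNA does not report how active p53 is. In the kidney, p53 is known for acting in proximal tubule cells after ischemia.

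Values are FPKM, fragments scaled by transcript length and by the mapped fragments of a library, which can be compared between genes per length. FPKM sums per library ran from 424207 to 549490, and read depth is unknown. Log2 folds are on the log2(FPKM + 1) scale, ± SE, and understate changes of low genes. They were tested with limma across 14716 genes, and a gene is called at an adjusted p under 0.05. All 10 genes passed the filter of at least 1 FPKM in at least 3 libraries, but Psrc1 reached 1 FPKM only in UIR kidneys of days 3 and 21 and in 2 sham kidneys of day 1, so its passing and its differences are not independent. The tissue is bulk kidney, so fewer cells of a type and less RNA per cell cannot be told apart. Kidney markers were present in sham kidneys of all 3 days, where 8 proximal tubule markers summed to 1870 to 2270 FPKM at day 1, 4080 to 4600 FPKM at day 3 and 4390 to 5120 FPKM at day 21.

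Against sham kidneys of the same day, the 10 genes were split at day 1, mostly higher at day 3 and still mostly higher at day 21. At day 1, 2 genes rose (Mdm2 and Trp53inp1) and 2 fell (Trp53 and Bax), where 28.5% and 31.1% of all genes were called higher and lower. At day 3, 9 of 10 rose and none fell, beside 57.6% of all genes higher and 17.9% lower. At day 21, 8 rose and Ccng1 fell, beside 60.7% higher and 20.1% lower. UIR and sham values did not overlap for 2 genes higher and 1 lower at day 1 (29.5% and 31.7% of all genes), 9 higher and 0 lower at day 3 (59.3% and 19.4%), and 8 higher and 1 lower at day 21 (62.8% and 21.5%). The median log2 fold of the 10 genes was 0.06, 1.52 and 1.12 at days 1, 3 and 21, and that of all genes was -0.03, 0.44 and 0.53. The Bax call at day 1 ended without UIR replicate 1 (log2 fold -0.25) or 2 (-0.29), or sham replicate 1 (-0.35) or 2 (-0.32), with limma adjusted p between 0.071 and 0.14, and with only the groups of day 1 in the fit (-0.37, 0.13). Of all calls, 76.3% were higher at day 3 and 75.2% at day 21, but 51.2% and 52.3% with median-of-ratios scaling, and 51.2% and 49.2% with quantile normalization. At these days the median fold of all genes was 0.03 and 0.05 with the first and 0.01 and -0.01 with the second. Both scalings bring the typical gene to a fold near 0, so a nearly even split is largely built in. With median-of-ratios scaling 5 of the 10 genes were called higher at day 21 and 2 lower. Over all 14716 genes under this scaling, 11103 were called at day 21, 5806 of them higher.

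**Figure D1:**
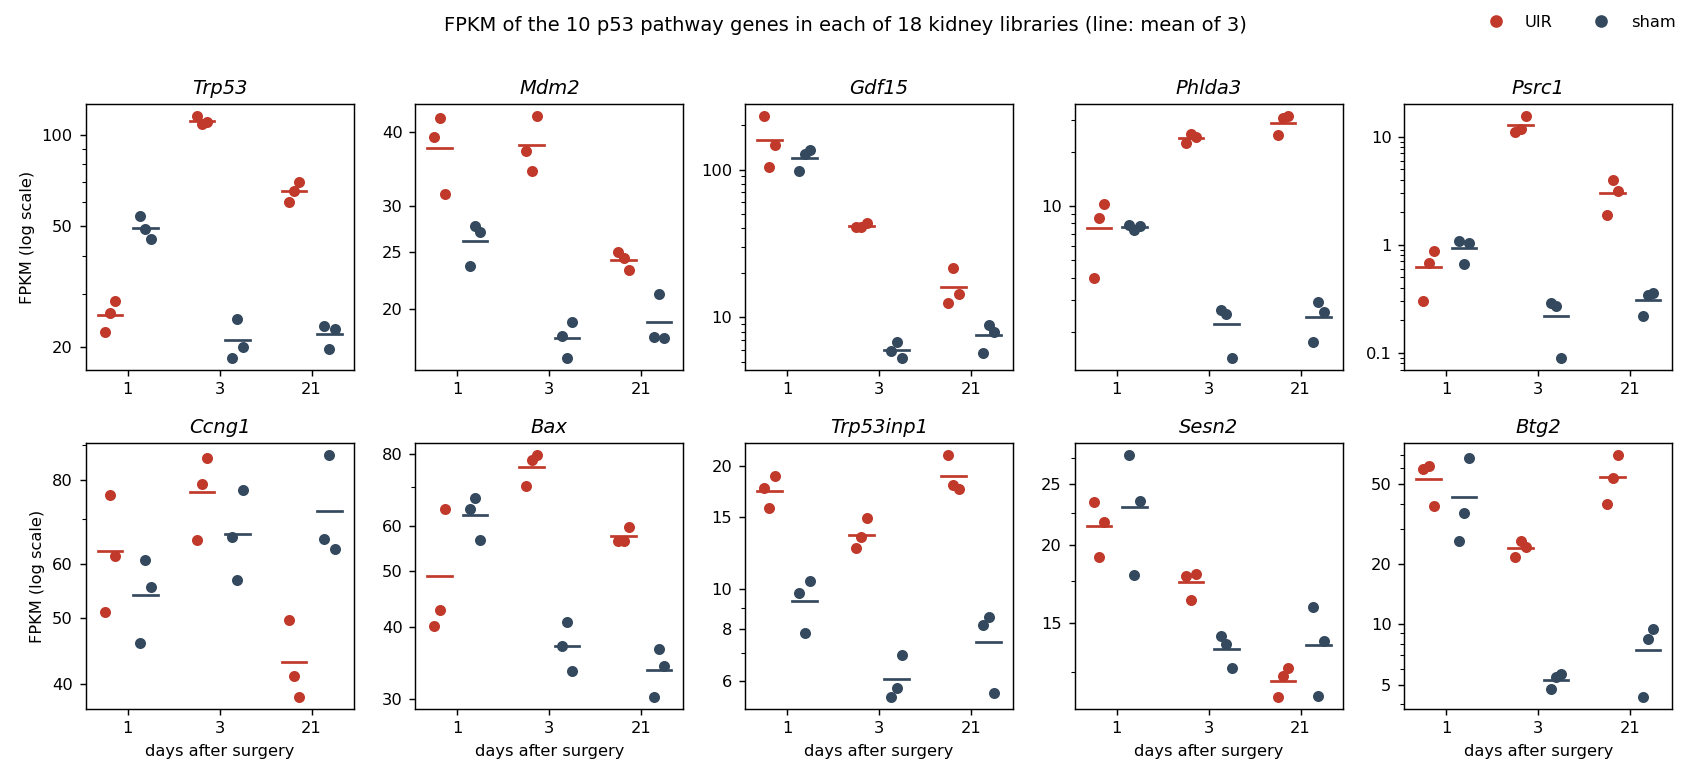
FPKM of each of the 10 genes on log axes that differ between panels, by days after surgery, with 3 UIR kidneys (red, left) and 3 sham kidneys (grey-blue, right) at each day and a line at their mean. Trp53 lay at 22.5 to 28.4 FPKM in UIR kidneys of day 1, below the 45.3 to 54.1 FPKM of sham kidneys, and at 108 to 115 FPKM in UIR kidneys of day 3, above the 18.5 to 24.9 FPKM of sham kidneys.

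RefSeq promoters (GRCm38.p6, 250 bases before to 50 after the start) were found for 9 of the 10 genes, all but Trp53inp1. They were searched on both strands for the p53 half-site, the 10-base element that p53 binds in pairs, for the ATF4 element TGATGNAAN, the cAMP response element TGACGTCA and the AP-1 element TGANTCA, and on the gene strand for the TATA box TATAAA. The stretches that hold a match are printed because p53 and the stress factors named act through such letters, and 80 bases are given 5′ to 3′ on the gene strand, with the match in capitals.
Trp53: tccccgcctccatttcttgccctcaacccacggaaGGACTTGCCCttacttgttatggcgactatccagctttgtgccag
Mdm2: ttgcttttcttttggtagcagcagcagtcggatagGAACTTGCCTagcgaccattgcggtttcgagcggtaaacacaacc
Ccng1: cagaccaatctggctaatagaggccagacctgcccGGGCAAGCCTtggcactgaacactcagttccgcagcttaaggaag
Bax: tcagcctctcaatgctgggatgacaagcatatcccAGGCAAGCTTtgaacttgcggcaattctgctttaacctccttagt
Btg2: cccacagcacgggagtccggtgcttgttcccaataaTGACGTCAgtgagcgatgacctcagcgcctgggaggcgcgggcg
The stretches are chr11:69580249-69580328 (plus strand) for Trp53, chr10:117710900-117710979 (minus) for Mdm2, chr11:40755427-40755506 (minus) for Ccng1, chr7:45467055-45467134 (minus) for Bax and chr1:134079278-134079357 (minus) for Btg2. A p53 half-site stood in the windows of 4 of 9 genes, and in 8.36% of all 32851 mouse promoters of the same length. Btg2 held the cAMP response element, which 1.79% of all promoters held. No window of the 9 genes held an exact p53 full site (2 half-sites with at most 13 bases between), the ATF4 element, the AP-1 element or a TATA box, which 0.0731%, 3.95%, 7.81% and 8.32% of all promoters held. Every base of a motif had to match, so sites with a mismatch were not counted. In Ccng1 the 10 bases directly before the match, agacctgccc, fit the half-site but for a mismatch, so an inexact full site there is not among these counts. Near matches were not searched for elsewhere, and others exist, such as gtgcttgttc in the Btg2 stretch. These letters describe a short window at each start, and p53 also binds outside such windows, as in the first intron of Mdm2.

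Trp53 (Entrez Gene 22059) was lower at day 1 and higher at days 3 and 21 than in sham kidneys of the same day. Bax was too, but its groups overlapped at day 1. Sham kidneys of day 1 were higher than later ones for these genes (log2 fold 1.16 for Trp53 and 0.81 for Bax). Against the later sham kidneys, UIR kidneys of day 1 stood at 0.24 for Trp53 and 0.43 for Bax. The Trp53 level was 22.5, 25.9 and 28.4 FPKM in UIR kidneys of day 1, against 54.1, 49.1 and 45.3 FPKM in sham kidneys (log2 fold -0.93 ± 0.11, limma adjusted p = 3.4e-06). It was 115, 108 and 109.8 FPKM in UIR kidneys of day 3, against 18.5, 24.9 and 20.05 FPKM in sham kidneys (2.35 ± 0.11, limma adjusted p = 4.1e-11). All 3 UIR kidneys lay below sham kidneys at day 1 and above them at day 3. At day 21 Trp53 was 60.0, 65.4 and 70.02 FPKM in UIR kidneys, against 23.5, 19.8 and 22.95 FPKM in sham kidneys (1.52 ± 0.11, limma adjusted p = 3.2e-09). The groups of day 21 did not overlap either. In UIR kidneys of days 3 and 21 Trp53 had the highest mean FPKM of the 10 genes, at 111 ± 3.49 and 65.1 ± 5.01 (SD, n = 3 each), and its values did not overlap those of the next gene. A pseudogene, Trp53-ps, is annotated in the mouse, and how reads were divided between it and Trp53 is not stated in the labels.

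Mdm2 (17246), the ubiquitin ligase that p53 induces and that limits p53, was higher in UIR kidneys at all 3 days. It was 39.2, 42.3 and 31.3 FPKM in UIR kidneys of day 1, against 23.65, 27.65 and 27.1 FPKM in sham kidneys (log2 fold 0.50 ± 0.11, limma adjusted p = 0.0011). It was 37.2, 34.3 and 42.5 FPKM in UIR kidneys of day 3, against 17.98, 16.5 and 19.1 FPKM in sham kidneys (1.04 ± 0.11, limma adjusted p = 3.7e-07). At day 21 the difference was small, with 25.0, 24.4 and 23.3 FPKM in UIR kidneys, against 17.96, 21.25 and 17.9 FPKM in sham kidneys (0.34 ± 0.11, limma adjusted p = 0.011). The 3 values of each UIR group lay above those of its sham group at every day. The fold at day 21 was below the median of all genes (-0.19 relative to it), and after quantile normalization it was 0.02 (limma adjusted p = 0.89). With median-of-ratios scaling it changed sign to -0.23 (limma adjusted p = 0.083).

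Of the 3 genes that act on growth, Btg2 and Psrc1 rose at days 3 and 21, and Ccng1 fell at day 21. Btg2 (12227) is an antiproliferative partner of the deadenylase that shortens messenger RNA tails, and it also belongs to the immediate early genes. It was 21.7, 25.9 and 24.2 FPKM in UIR kidneys of day 3, against 4.74, 5.44 and 5.64 FPKM in sham kidneys (log2 fold 1.99 ± 0.30, limma adjusted p = 2e-05). It was 39.9, 53.6 and 69.5 FPKM in UIR kidneys of day 21, against 4.35, 8.48 and 9.46 FPKM in sham kidneys (2.74 ± 0.30, limma adjusted p = 4.2e-07). The groups did not overlap at either day. At day 1 they did, with 59.8, 61.3 and 39.0 FPKM in UIR kidneys, against 26.2, 35.7 and 67.8 FPKM in sham kidneys (0.38 ± 0.30, limma adjusted p = 0.3). Without sham day-1 replicate 3, the highest sham value, Btg2 was called at day 1 (0.75, limma adjusted p = 0.03).

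Psrc1 (56742) encodes a microtubule-binding protein of the mitotic spindle. It was 11.0, 11.8 and 15.35 FPKM in UIR kidneys of day 3, against 0.29, 0.27 and 0.09 FPKM in sham kidneys (log2 fold 3.48 ± 0.18, limma adjusted p = 1.2e-10). It was 1.9, 3.97 and 3.17 FPKM in UIR kidneys of day 21, against 0.22, 0.34 and 0.36 FPKM in sham kidneys (1.59 ± 0.18, limma adjusted p = 6.8e-07). The groups were apart at both days, and every sham value of these days was under 1 FPKM. Its passing the filter and these differences are therefore not independent. At day 1 Psrc1 was at or under 1.09 FPKM in all 6 kidneys (-0.26 ± 0.18, limma adjusted p = 0.23). Psrc1 had the lowest mean of the 10 genes in every group.

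Ccng1 encodes cyclin G1, which brings a phosphatase to the MDM2 protein. Ccng1 (12450) had the highest mean of the set in sham kidneys of days 3 and 21, at 66.6 ± 10.2 and 71.9 ± 13.1 FPKM (SD, n = 3 each). It fell at day 21, with 49.6, 41.1 and 38.25 FPKM in UIR kidneys, against 65.4, 86.95 and 63.3 FPKM in sham kidneys (log2 fold -0.72 ± 0.17, limma adjusted p = 0.00098). All 3 UIR values lay below the sham values. At day 1 it averaged 62.9 ± 12.5 FPKM in UIR kidneys and 54.1 ± 7.65 FPKM in sham kidneys (0.20, 95% interval -0.16 to 0.57). At day 3 it averaged 76.8 ± 10.7 FPKM in UIR kidneys and 66.6 ± 10.2 FPKM in sham kidneys (0.20, 95% interval -0.16 to 0.56). At neither day was it called as deposited, with limma adjusted p of 0.32 and 0.29. At day 3 it was called with each library rescaled to the same sum (0.49, limma adjusted p = 0.023), and it turned to -0.33 with median-of-ratios scaling (limma adjusted p = 0.078).

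Among the genes of cell death and survival, Bax, Phlda3 and Trp53inp1 all rose at days 3 and 21. Bax (12028), which forms pores in the outer mitochondrial membrane, was 70.2, 78.1 and 79.5 FPKM in UIR kidneys of day 3, against 37.0, 40.7 and 33.6 FPKM in sham kidneys (log2 fold 1.02 ± 0.14, limma adjusted p = 5.4e-06). It was 56.5, 56.4 and 59.6 FPKM in UIR kidneys of day 21, against 30.25, 36.6 and 34.2 FPKM in sham kidneys (0.76 ± 0.14, limma adjusted p = 9.4e-05). The groups did not overlap at either day. At day 1 it was 40.2, 42.8 and 64.2 FPKM in UIR kidneys, against 64.1, 67.1 and 56.6 FPKM in sham kidneys (-0.37 ± 0.14, limma adjusted p = 0.028). UIR replicate 3 of that day lay among the sham values. With median-of-ratios scaling the increase at day 21 was 0.18 (limma adjusted p = 0.22).

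Phlda3 (27280), a pleckstrin homology protein that competes with the kinase AKT for membrane lipids, showed the largest fold of the set at day 21. It was 24.9, 30.8 and 31.5 FPKM in UIR kidneys of day 21, against 1.74, 2.92 and 2.57 FPKM in sham kidneys (log2 fold 3.15 ± 0.24, limma adjusted p = 3.8e-09). It was 22.3, 25.1 and 24.2 FPKM in UIR kidneys of day 3, against 2.65, 2.51 and 1.43 FPKM in sham kidneys (2.98 ± 0.24, limma adjusted p = 1.2e-08). The ratio of the means was 10.9 at day 3 and 12.1 at day 21. At day 1 the groups overlapped, with 3.96, 8.58 and 10.2 FPKM in UIR kidneys, against 7.88, 7.36 and 7.74 FPKM in sham kidneys (-0.09 ± 0.24, limma adjusted p = 0.76). The lowest of these, UIR replicate 1, set the sign, and without it the fold was 0.26 (limma adjusted p = 0.22).

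Trp53inp1 (60599), a nuclear stress protein that promotes p53 phosphorylation and autophagy, was higher in UIR kidneys at every day. It was 17.7, 15.8 and 18.8 FPKM in UIR kidneys of day 1, against 9.82, 7.83 and 10.5 FPKM in sham kidneys (log2 fold 0.84 ± 0.14, limma adjusted p = 9.4e-05). At day 3 it averaged 13.6 ± 1.16 FPKM in UIR kidneys and 6.05 ± 0.765 FPKM in sham kidneys (1.06 ± 0.14, limma adjusted p = 4.5e-06). At day 21 it averaged 18.9 ± 1.99 FPKM in UIR kidneys and 7.44 ± 1.62 FPKM in sham kidneys (1.25 ± 0.14, limma adjusted p = 4.8e-07). UIR and sham values did not overlap at any day, and the ratios of the means were 1.86, 2.25 and 2.54. Its folds did not differ between days past the threshold, with 0.22 for day 3 minus day 1 (95% interval -0.20 to 0.64, limma adjusted p = 0.34) and 0.20 for day 21 minus day 3 (95% interval -0.23 to 0.62, limma adjusted p = 0.45). The first of these was called in libraries rescaled to the same sum (0.51, limma adjusted p = 0.044). It turned to -0.30 with median-of-ratios scaling and to -0.28 with quantile normalization.

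Gdf15 and Sesn2 answer to the integrated stress response through ATF4 as well as to p53. Gdf15 (23886), a secreted cytokine of the TGF-beta superfamily, was 41.1, 40.6 and 43.6 FPKM in UIR kidneys of day 3, against 5.87, 6.81 and 5.32 FPKM in sham kidneys (log2 fold 2.62 ± 0.24, limma adjusted p = 6.7e-08). It was 12.4, 21.5 and 14.3 FPKM in UIR kidneys of day 21, against 5.75, 8.91 and 7.93 FPKM in sham kidneys (0.99 ± 0.24, limma adjusted p = 0.0013). Both days were without overlap. At day 1 it was high in both groups, with 229, 104 and 146 FPKM in UIR kidneys, against 97.1, 127 and 135 FPKM in sham kidneys (0.35 ± 0.24, limma adjusted p = 0.23). Without UIR day-1 replicate 2 that fold was 0.62 (limma adjusted p = 0.032). The increase at day 21 ended with median-of-ratios scaling (0.44, limma adjusted p = 0.12) and quantile normalization (0.46, limma adjusted p = 0.089).

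Sesn2 (230784), a leucine sensor that restrains the growth kinase complex mTORC1, had small folds. It was 17.8, 16.3 and 17.9 FPKM in UIR kidneys of day 3, against 14.3, 13.9 and 12.7 FPKM in sham kidneys (log2 fold 0.33 ± 0.13, limma adjusted p = 0.037). The values did not overlap, but the fold was below the median of all genes (-0.11 relative to it) and turned to -0.18 with median-of-ratios scaling and -0.09 with quantile normalization. It was no longer called after leaving out sham day-3 replicate 2 (0.34, limma adjusted p = 0.059) or 3 (0.28, 0.11) or UIR day-3 replicate 1 (0.31, 0.088) or 3 (0.31, 0.089). At day 1 Sesn2 averaged 21.4 ± 2.19 FPKM in UIR kidneys and 23.0 ± 4.96 FPKM in sham kidneys (-0.08, 95% interval -0.37 to 0.20, limma adjusted p = 0.62). At day 21 it averaged 12.1 ± 0.653 FPKM in UIR kidneys and 13.8 ± 2.22 FPKM in sham kidneys (-0.16, 95% interval -0.45 to 0.12, limma adjusted p = 0.28). Relative to the median of all genes the fold at day 21 was -0.69, and it was called lower with median-of-ratios scaling and with quantile normalization (-0.71 in both, limma adjusted p = 0.00045 and 0.00027).

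**Figure D2:**
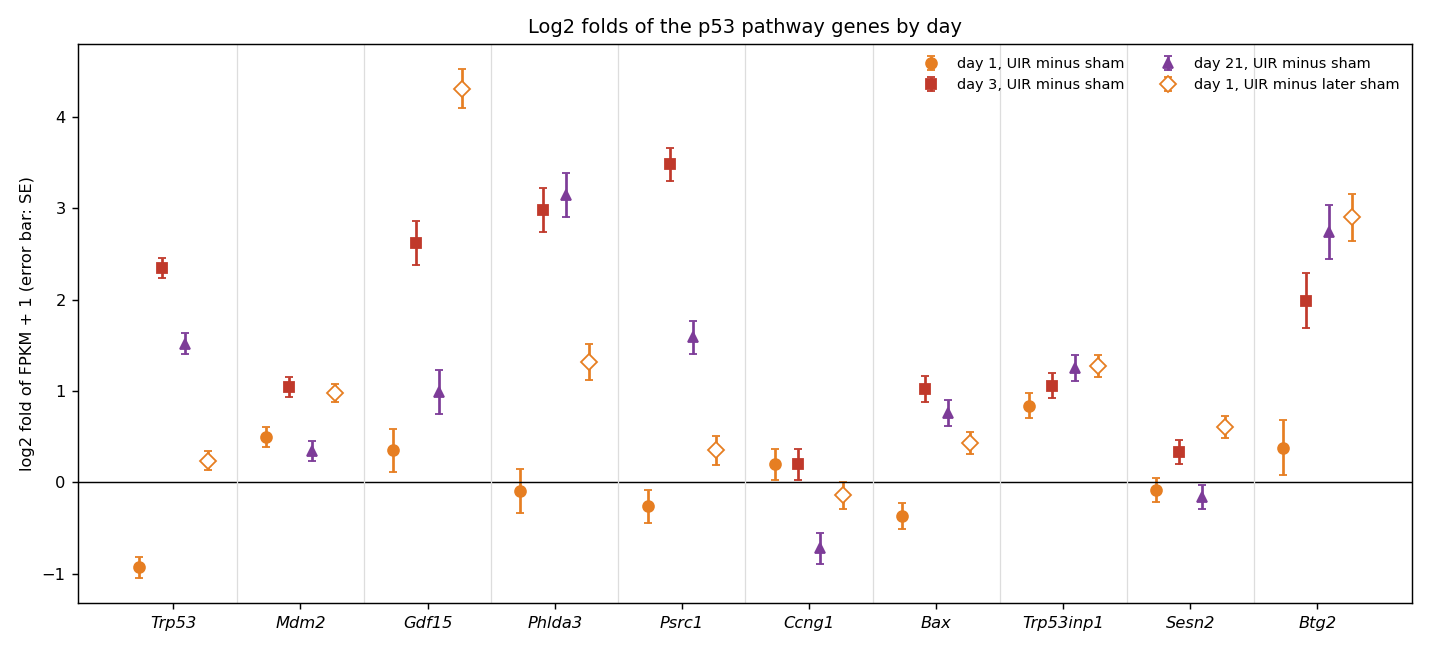
Log2 folds of FPKM + 1 (points) with SE (bars) for the 10 genes at days 1, 3 and 21 against sham kidneys of the same day (filled), and at day 1 against sham kidneys of days 3 and 21 (open). Gdf15 stands at 0.35 against sham kidneys of day 1 and at 4.31 against the later sham kidneys, and Ccng1 alone is lower at day 21 (-0.72) past the threshold.

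The difference between UIR and sham kidneys was also compared between days. From day 1 to day 3 it was greater for 7 of the 10 genes and lower for none, beside 50.1% and 12.7% of all genes. It was greater for none and lower for 6 (Trp53, Mdm2, Gdf15, Psrc1, Ccng1 and Sesn2) from day 3 to day 21, beside 26.1% and 20.2% of all genes. From day 1 to day 21 it was greater for 5 and lower for 1, which was Ccng1, beside 54.1% and 16.3% of all genes.

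Placed among the folds of all 14716 genes at day 3, Psrc1 exceeded 99.1% of genes, Phlda3 98.5%, Gdf15 97.5%, Trp53 96.5% and Btg2 94.6%. Psrc1 passed the filter mostly through UIR kidneys of days 3 and 21, so its place is not independent of its passing. Trp53inp1 (78.7%), Mdm2 (78.4%) and Bax (77.5%) came next, and Sesn2 (44.1%) and Ccng1 (37.4%) lay below the middle of the genes. At day 21 Phlda3 exceeded 96.7% and Btg2 94.8% of genes, while Mdm2 exceeded 41.2% and Sesn2 23.2%. Cdkn1a, the p21 gene and a classical p53 target, exceeded 99.5% at day 3 and 98.6% at day 21, with 66.4 ± 8.79 and 72.9 ± 8.58 FPKM in UIR kidneys, against 3.45 ± 0.88 and 4.18 ± 0.922 FPKM in sham kidneys. These places describe the libraries and carry no test.

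The sham kidneys of day 1 stood apart from the later sham kidneys for most of the genes. All but Ccng1, 9 of the 10 genes, were called higher in sham kidneys of day 1 than the mean of days 3 and 21, beside 31.9% of all genes, and none lower, beside 14.1%. Gdf15 was 97.1 to 135 FPKM in sham kidneys of day 1, against 5.32 to 8.91 FPKM in the 6 later ones (log2 fold 3.96 ± 0.21, limma adjusted p = 1.6e-09). Btg2 was 26.2 to 67.8 FPKM there, against 4.35 to 9.46 FPKM later (2.52 ± 0.26, limma adjusted p = 1.7e-06). These 2 genes showed the largest shifts, and neither range overlapped. Phlda3 (1.41), Trp53 (1.16), Bax (0.81), Sesn2 (0.69), Psrc1 (0.61), Mdm2 (0.48) and Trp53inp1 (0.43) followed, at limma adjusted p of 0.0086 or lower. The Psrc1 call ended with a pseudocount of 5 (0.17, limma adjusted p = 0.081) and that of Trp53inp1 without sham day-1 replicate 3 (0.35, 0.059), with median-of-ratios scaling (0.29, 0.056) and with quantile normalization (0.22, 0.13). For Ccng1 the difference was -0.35 ± 0.15 (limma adjusted p = 0.066), and it was called lower with median-of-ratios scaling (-0.51, 0.0064), library weights (-0.34, 0.014) and without sham day-3 replicate 2 (-0.40, 0.041). In the same contrast 5 of 5 neutrophil markers were higher, with sums of 22 to 71.9 FPKM in sham kidneys of day 1, against 7.08 to 9.96 and 4.38 to 7.29 FPKM in those of days 3 and 21. Of 8 proximal tubule markers 5 were lower, with sums of 1870 to 2270 FPKM at day 1, against 4080 to 4600 and 4390 to 5120 FPKM later. The part of these cells in the sham levels of the 10 genes was not tested.

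Against these later sham kidneys, UIR kidneys of day 1 showed 8 genes higher and none lower, beside 39.6% of all genes called higher and 32% lower. This control was chosen with earlier results of these data known. Gdf15 (log2 fold 4.31 ± 0.21), Btg2 (2.90 ± 0.26), Phlda3 (1.32 ± 0.20) and Trp53inp1 (1.27 ± 0.12) had the largest folds, all with a limma adjusted p of at most 2.4e-05. Mdm2 (0.98), Sesn2 (0.61) and Bax (0.43) were also called, at limma adjusted p of 0.0039 or lower. Trp53 was at the threshold (0.24 ± 0.10, limma adjusted p = 0.04), and it lost this call after leaving out sham day-3 replicate 1 (0.19) or 3 (0.22), sham day-21 replicate 2 (0.20) or UIR day-1 replicate 2 (0.22) or 3 (0.16). It also ended with median-of-ratios scaling and quantile normalization (0.11 in both, limma adjusted p = 0.31 and 0.33) and with only the groups compared (0.094). Psrc1 (0.35 ± 0.16, limma adjusted p = 0.063) and Ccng1 (-0.14 ± 0.15, limma adjusted p = 0.4) were not called. Psrc1 was called with a pseudocount of 0.1 (0.95, limma adjusted p = 0.012), in libraries rescaled to the same sum (0.56, 0.023), with only the groups compared (0.026) and without UIR day-1 replicate 1 (0.49, 0.019). Values of UIR kidneys of day 1 and later sham kidneys overlapped for both Trp53 and Bax.

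**Figure D3:**
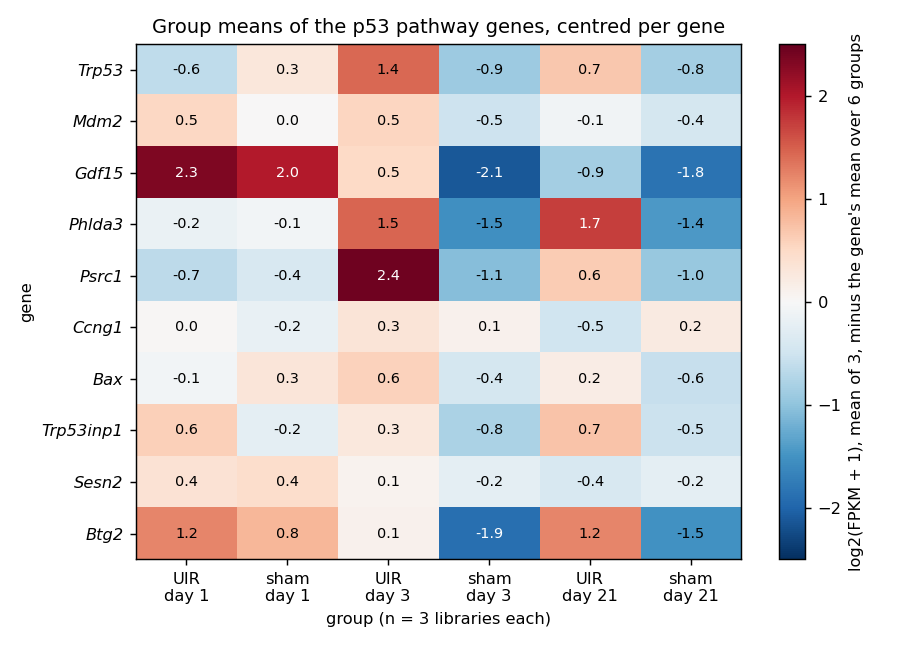
Group means (n = 3 libraries) of log2(FPKM + 1) for the 10 genes (rows) in 6 groups (columns), each gene centred on its mean over the groups, with colour from low (blue) to high (red). Gdf15 is high in both groups of day 1, Psrc1 peaks in UIR kidneys of day 3, and Phlda3 is highest in UIR kidneys of days 3 and 21.

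The order of the 10 levels, by mean FPKM per length, changed with UIR and with the day. In UIR kidneys of day 1 Gdf15 led, followed by Ccng1, Btg2, Bax and Mdm2, whose values overlapped from each to the next, then by Trp53 and Sesn2, which overlapped, and by Trp53inp1, Phlda3 and Psrc1, which did not. In sham kidneys of day 1 Gdf15 also led, and Bax, Ccng1, Trp53, Btg2, Mdm2 and Sesn2 formed 1 chain of overlapping neighbours. In UIR kidneys of day 3 Trp53 came before Ccng1 and Bax, which overlapped, as did Gdf15 with Mdm2, Btg2 with Phlda3, and Trp53inp1 with Psrc1. In sham kidneys of day 3 the order was Ccng1, Bax, Trp53 and Mdm2 (overlapping), Sesn2, then Trp53inp1, Gdf15 and Btg2 (overlapping), Phlda3 and Psrc1. In UIR kidneys of day 21 Trp53 again led, then Bax, Btg2 and Ccng1 overlapped, as did Phlda3 with Mdm2, and Trp53inp1 with Gdf15 and Gdf15 with Sesn2. In sham kidneys of day 21 the order was that of day 3, except that Gdf15 and Trp53inp1, which overlapped, changed places.

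Within UIR kidneys the 10 genes followed different courses. From day 1 to day 3 Psrc1 (log2 difference 3.09 ± 0.18), Trp53 (2.08 ± 0.11), Phlda3 (1.61 ± 0.24) and Bax (0.65 ± 0.14) rose, at limma adjusted p of 0.00062 or lower. Gdf15 (-1.83 ± 0.24), Btg2 (-1.10 ± 0.30) and Trp53inp1 (-0.33 ± 0.14) fell, with limma adjusted p of 6.5e-06, 0.0048 and 0.047. Over all genes 49.4% were called higher and 17.1% lower in this contrast. The Trp53inp1 call ended without UIR day-1 replicate 1 (-0.32) or 3 (-0.28) or UIR day-3 replicate 1 (-0.28) or 2 (-0.32), with limma adjusted p of 0.096 to 0.14. It ended too in libraries rescaled to the same sum (-0.18, 0.31), with library weights (-0.29, 0.091), a pseudocount of 0.1 (-0.35, 0.057) or no filter (0.063). The Sesn2 difference (-0.28 ± 0.13, limma adjusted p = 0.074) was called with median-of-ratios scaling (-0.66, 0.0011), quantile normalization (-0.51, 0.0052), only the groups compared (0.046) or without UIR day-1 replicate 2 (-0.36, 0.045). Ccng1 (0.29, limma adjusted p = 0.14) was called in libraries rescaled to the same sum (0.47, 0.034) and without UIR day-1 replicate 2 (0.44, 0.043). The Bax call ended with median-of-ratios scaling (0.25, 0.093). Mdm2 was not called in this contrast (0.02, 95% interval -0.22 to 0.26, limma adjusted p = 0.89), but was called lower with median-of-ratios scaling (-0.37, limma adjusted p = 0.01).

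From day 3 to day 21 in UIR kidneys 7 genes fell and 2 rose, beside 24% and 32.2% of all genes. Psrc1 (log2 difference -1.79 ± 0.18), Gdf15 (-1.36 ± 0.24), Ccng1 (-0.82 ± 0.17), Trp53 (-0.76 ± 0.11) and Mdm2 (-0.62 ± 0.11) fell, all with a limma adjusted p of at most 0.00066, as did Sesn2 (-0.48 ± 0.13) and Bax (-0.39 ± 0.14). Btg2 (1.12 ± 0.30, limma adjusted p = 0.0053) and Trp53inp1 (0.44 ± 0.14, limma adjusted p = 0.014) rose. Phlda3 was not called (0.27, 95% interval -0.23 to 0.77, limma adjusted p = 0.35). The Bax call ended without UIR day-3 replicate 2 (-0.37) or 3 (-0.36) or UIR day-21 replicate 1 or 2 (-0.38 in both), and that of Trp53inp1 without UIR day-3 replicate 1 (0.39) or UIR day-21 replicate 1 (0.36).

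For 5 of the genes the group means spanned at least 2 log2 units, and the genes with the closest centred profile over the 6 groups were found by the root mean square difference in log2 units. Psrc1 lay closest to Rrm1 (0.17), a ribonucleotide reductase subunit, to Incenp (0.18) of the chromosomal passenger complex and to the spindle protein Tacc3 (0.20). Trp53 lay closest to Haus4 (0.18), a subunit of the spindle complex augmin, to Rasl12 (0.23) and to the cyclin-dependent kinase gene Cdk4 (0.23). Phlda3 lay closest to the guanylate-binding protein gene Gbp2 (0.24), to Pxdn (0.25) and to Stap2 (0.26). Btg2 had Atf5 (0.28), Stat3 (0.37) and Cyr61 (0.38), and Gdf15 had the heme oxygenase gene Hmox1 (0.58), Arg2 (0.61) and Tnfrsf12a (0.67), so Gdf15 had the loosest match of the 5. Likeness over 6 groups is a description, since many genes share such profiles.

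Other known p53 targets, 34 of a list of 36 that passed the filter, rose in 15 and fell in 7 cases at day 1, rose in 29 and fell in 2 at day 3, and rose in 29 and fell in 2 at day 21. Over all genes 28.5%, 57.6% and 60.7% rose and 31.1%, 17.9% and 20.1% fell at these days. The median log2 folds of the list were 0.19, 0.90 and 0.92, against -0.03, 0.44 and 0.53 for all genes. Some genes of the list passed the filter only through UIR kidneys, so their passing and their differences are not independent. Among those that rose were Sfn, a 14-3-3 protein of cell cycle arrest, at day 1 (3.11), the mitotic regulator Gtse1 at day 3 (3.95) and the peptide transporter Tap1 at day 21 (3.28). Largest among the decreases were the DNA damage-binding protein gene Ddb2 at day 1 (-1.03), Rrm2b at day 3 (-0.33) and the apoptosis effector Perp at day 21 (-0.84). The Rrm2b call ended without any 1 of 5 of the 6 libraries of day 3, all but sham replicate 2 (-0.26 to -0.33), and in libraries rescaled to the same sum (-0.09).

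**Figure D4:**
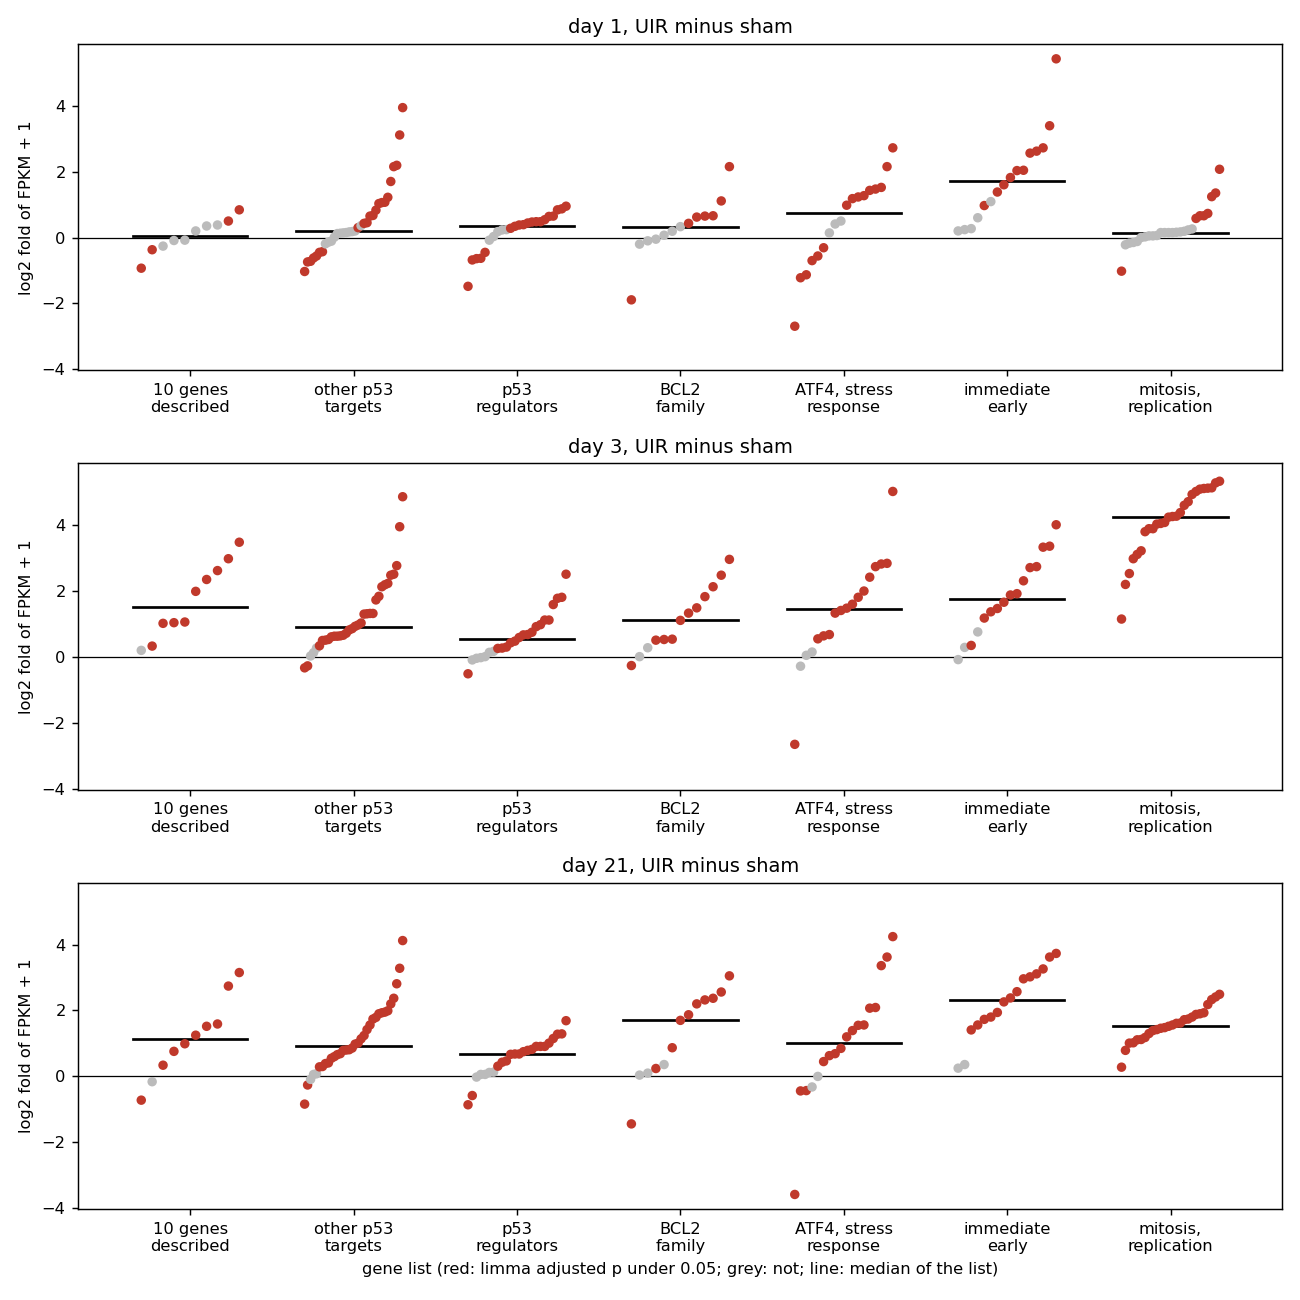
Log2 folds of FPKM + 1, UIR minus sham, at days 1, 3 and 21 (panels) for the 10 genes and 6 further gene lists (columns), with genes called in red, others in grey and the list median as a line. All 26 mitosis and replication genes are called higher at days 3 and 21, beside 57.6% and 60.7% of all genes. The 10 genes have medians of 0.06, 1.52 and 1.12, against -0.03, 0.44 and 0.53 for all genes.

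Of the regulators of p53, 14 of 24 rose and 5 fell at day 1, 17 and 1 at day 3, and 17 and 2 at day 21 (median log2 folds 0.36, 0.54 and 0.68). Over all genes 28.5%, 57.6% and 60.7% rose and 31.1%, 17.9% and 20.1% fell at these days. The median of all genes was -0.03 at day 1, and at days 3 and 21 the medians of the list lay near those of all genes (0.44 and 0.53). The damage kinase gene Chek2 fell at day 1 (-1.48) and rose at day 3 (1.78), where Chek1 rose most (2.51). Mdm4, the relative of Mdm2 that masks the activation domain of p53, fell at day 1 (-0.64) and rose at day 21 (1.28). Cdkn2a, whose alternative product ARF inhibits MDM2, was listed at 0 in all 3 sham kidneys of each day and averaged 2.3 ± 0.87 FPKM in UIR kidneys of day 21. Chek1 reached 1 FPKM only in UIR kidneys of days 3 and 21, and Cdkn2a only in those of day 21. Their passing the filter and their differences are therefore not independent, and they are part of the counts above.

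Of 13 BCL2 family genes, which include the partners and antagonists of Bax, 6 rose and 1 fell at day 1, 10 and 1 at day 3, and 9 and 1 at day 21 (median log2 folds 0.33, 1.11 and 1.70). Over all genes 28.5%, 57.6% and 60.7% rose and 31.1%, 17.9% and 20.1% fell at these days, so the count that rose at day 21 is near that of all genes. Bak1, the other pore former, rose at day 3 (2.96), with 86.3 ± 5.13 FPKM in UIR kidneys and 10.2 ± 0.796 FPKM in sham kidneys. The p53-inducible BH3-only genes Pmaip1 (2.15 at day 1 and 2.48 at day 3) and Bbc3 (2.13 at day 3 and 2.37 at day 21) rose. Bid, which activates Bax, fell at all 3 days (-1.89, -0.26 and -1.44). The day-3 call of Bid ended without UIR replicate 2 (-0.22), and it turned to 0.02 in libraries rescaled to the same sum.

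The relatives of the 10 genes did not all move with them. Sesn3 rose at day 3 (log2 fold 2.30) and Sesn1 at day 21 (1.90, with 21.4 ± 2.26 FPKM in UIR kidneys and 5.02 ± 1 FPKM in sham kidneys), while Sesn2 was at 0.33 and -0.16. Phlda1 rose at each day (3.28, 2.54 and 2.46) and Phlda2 fell at each day (-0.88, -1.37 and -2.99). Btg1, like Btg2 an antiproliferative factor, rose at each day (1.88, 1.77 and 2.48). Of 11 relatives tested 5 rose and 3 fell at day 1, 9 and 2 at day 3, and 8 and 2 at day 21, beside 28.5%, 57.6% and 60.7% of all genes that rose and 31.1%, 17.9% and 20.1% that fell.

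Gene groups tied to other regulators of the 10 genes were counted at the same days. Of 26 mitosis and replication genes, the setting of Psrc1, 7 rose at day 1, near the 28.5% of all genes, and all 26 rose at days 3 and 21 (57.6% and 60.7% of all genes). Their summed FPKM was 116 to 137, 936 to 1160 and 176 to 233 in UIR kidneys, against 73.8 to 85.1, 57.6 to 63.1 and 57.4 to 70 in sham kidneys. Some of these 26 genes may have passed the filter only through UIR kidneys, and for those passing and difference are not independent. Of 18 ATF4 and integrated stress response genes, 9 rose and 6 fell with UIR at day 1, 14 and 1 at day 3, and 13 and 3 at day 21. Of 16 immediate early genes 11, 13 and 14 rose with UIR at these days and none fell. Over all genes 31.1%, 17.9% and 20.1% fell. Of the ATF4 and integrated stress response genes 14 were higher in sham kidneys of day 1 than in later ones (31.9% of all genes), with sums of 580 to 651 FPKM at day 1, against 269 to 316 and 286 to 343 FPKM at days 3 and 21. Of 16 immediate early genes, 13 were higher in sham kidneys of day 1, with sums of 281 to 577 FPKM, against 114 to 136 and 102 to 199 FPKM at days 3 and 21. Gdf15 and Btg2 had the largest shifts of the 10 genes in the same sham kidneys. The part of these groups in the levels of the 10 genes was not tested.

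Markers of several cell types moved with UIR as well. Over all genes 28.5%, 57.6% and 60.7% rose and 31.1%, 17.9% and 20.1% fell at days 1, 3 and 21. All 8 proximal tubule markers fell at days 3 and 21, with sums of 210 to 334 and 38.6 to 282 FPKM in UIR kidneys, against 4080 to 4600 and 4390 to 5120 FPKM in sham kidneys. All 6 macrophage markers rose at these days, to sums of 275 to 699 and 2990 to 4220 FPKM in UIR kidneys, against 49 to 55.4 and 46.4 to 58.5 FPKM in sham kidneys. All 6 fibroblast and pericyte markers rose too, to 133 to 430 and 1070 to 1200 FPKM in UIR kidneys, against 31.5 to 61.5 and 40.8 to 54.4 FPKM in sham kidneys. Likewise the 6 T cell markers rose, with 6.15 to 38.1 and 95.8 to 122 FPKM in UIR kidneys, against 3.32 to 5.57 and 2.71 to 3.99 FPKM in sham kidneys. At day 1, 4 of 5 neutrophil markers rose, to sums of 115 to 208 FPKM in UIR kidneys, against 22 to 71.9 FPKM in sham kidneys, and the other one, Ly6g, fell (log2 fold -1.17). Of 4 podocyte markers 3 rose at day 3 and 4 at day 21, and of 5 endothelial markers 2 and 4 rose. Among 6 distal nephron and collecting duct markers 1 rose and 3 fell at day 3, and 3 fell at day 21. Of 2 B cell markers tested 1 fell at day 3 and 2 rose at day 21. T and B cell markers had low sums in sham kidneys, so some may have passed the filter only through UIR kidneys. For those, passing and difference are not independent. No marker of these lists was at 0 in all 3 kidneys of a group. The part of these cells in the folds of the 10 genes was not tested.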

How the data were processed

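RNA of 18 mouse kidneys was sequenced in 6 groups of 3. The authors deposited FPKM per gene, not counts. Per the submitters' processing notes the tools were RSEM 1.2.12, Bowtie2 2.2.5 and HISAT2 2.0.4, with mm9 as the build, and what each did is not stated. Strand and any later scaling are not given in the sources. Each column matched 1 sample title, no library pair was identical, and 0 sample columns were left unused. Genes with at least 1 FPKM in at least 3 libraries (14716 of 20825) were analysed as log2(FPKM + 1). limma 3.58.1 in R 4.3.3 modelled the 6 group means over all 18 libraries, with a variance trend and 12 residual degrees of freedom, and tested each contrast two-sided with Benjamini-Hochberg adjustment over all genes, threshold 0.05. An exact test of 3 against 3 cannot give a p under 0.1. The script was tested on simulated data. The labels give biological replicates but no batch. The 10 genes, the lists and the marker sets were chosen with earlier results of these data known. Named are the 10 genes, Cdkn1a, up to 3 called genes per direction, list and day, and the 3 closest profiles, by a fixed rule. A gene that the rule names is not reported here. Alternatives changed the pseudocount (0.1 or 5), filter, scaling, weights, trend, libraries and replicate block. Promoter letters are from RefSeq (GRCm38.p6), another build than mm9.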

Additional observations from a re-analysis of the deposited data

Results flagged for a closer look

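The difference between UIR and sham kidneys was itself compared between days in the same limma model, and 19 such differences among the 10 genes passed an adjusted p of 0.05. Each is the log2 fold of the later day minus that of the earlier day. Sham kidneys of day 1 enter every difference that involves day 1, and 9 of the 10 genes were higher in them than in later sham kidneys.

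Between days 1 and 3, beside 50.1% of all genes higher and 12.7% lower, the effect grew for 7 genes and was lower for none. These were Psrc1 (3.75), Trp53 (3.27), Phlda3 (3.08), Gdf15 (2.27), Btg2 (1.61), Bax (1.39) and Mdm2 (0.54). For Trp53 and Bax the effect had opposite signs at the 2 days. The Mdm2 difference turned to -0.01 with median-of-ratios scaling (limma adjusted p = 0.96) and ended with quantile normalization (0.30, 0.11), and that of Btg2 with median-of-ratios scaling (1.09, limma adjusted p = 0.051). That of Sesn2 (0.41, limma adjusted p = 0.07) passed in libraries rescaled to the same sum (0.70, 0.0036), with library weights (0.44, 0.036) and without sham day-1 replicate 2 (0.58, 0.0073), and turned to -0.13 with median-of-ratios scaling. Ccng1 was lower with median-of-ratios scaling (-0.57, 0.04).

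Between days 3 and 21, beside 26.1% of all genes higher and 20.2% lower, the effect was smaller or more negative for 6 genes. These were Psrc1 (-1.90), Gdf15 (-1.63), Ccng1 (-0.93), Trp53 (-0.83), Mdm2 (-0.71) and Sesn2 (-0.49). The Sesn2 difference was past the threshold by little (limma adjusted p = 0.046) and ended without any 1 of 11 of the 12 libraries, all but sham day-21 replicate 2 (-0.39 to -0.53, limma adjusted p of 0.052 to 0.12). It ended too with a pseudocount of 5 (-0.39, 0.051), no filter (0.058) and median-of-ratios scaling (-0.53, 0.05). Phlda3 (0.17, 95% interval -0.54 to 0.87) and Btg2 (0.75, 95% interval -0.17 to 1.66) were not called.

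Between days 1 and 21, beside 54.1% of all genes higher and 16.3% lower, the effect was larger for Phlda3 (3.24), Trp53 (2.45), Btg2 (2.36), Psrc1 (1.85) and Bax (1.13). It was lower for Ccng1 (-0.93). Gdf15 (0.64, limma adjusted p = 0.1) passed with library weights (1.02, 0.012), in libraries rescaled to the same sum (0.87, 0.03) and without UIR day-1 replicate 1 (0.93, 0.01). Trp53inp1 (0.42, limma adjusted p = 0.072) passed with equal sums (0.63, 0.017), with library weights (0.51, 0.028) and without sham day-1 replicate 2 (0.53, 0.028) or sham day-21 replicate 2 (0.52, 0.035). Mdm2 was lower with median-of-ratios scaling (-0.77, 0.00062) and quantile normalization (-0.47, 0.013), as was Sesn2 (-0.66 and -0.63, limma adjusted p = 0.012 in both).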

How the results depend on the processing

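Of 507 alternative values of the UIR and sham differences of the 10 genes, 482 kept their direction and side of the threshold, 13 kept their direction but lost the call, 5 gained it and 7 changed sign. Of those 7, 3 also lost a call (Sesn2 at day 3 under both scalings below and Mdm2 at day 21). In counts of called genes, lower calls at day 1 were 1 with only the groups compared and 1 to 2 with 1 library left out (2 as reported). With median-of-ratios scaling, calls at day 21 were 5 higher and 2 lower, the effect was lower for 1 gene between days 1 and 3 and for 3 between days 1 and 21, UIR kidneys of day 3 were lower than those of day 1 for 5, and sham kidneys of day 1 were lower for 1. Quantile normalization gave 2 lower at day 21 and 3 lower effects between days 1 and 21, and library weights gave 1 lower in sham kidneys of day 1. Over all genes at day 21, 5806 of 11103 calls were higher with median-of-ratios scaling and 5431 of 11040 with quantile normalization. For contrasts between days no share of all genes under these alternatives is given, so those counts have no background beside them. With 1 library left out, calls higher from day 3 to 21 in UIR kidneys numbered 1 to 2, and calls lower in sham kidneys of day 1 numbered 0 to 1.

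Signs changed at day 3 with median-of-ratios scaling for Ccng1 (-0.33) and Sesn2 (-0.18), with quantile normalization for Sesn2 (-0.09), and with equal sums for the p53 target Ei24 (0.01, against -0.27 as deposited) and Bid (0.02). At day 21 they changed for Mdm2 (-0.23, median-of-ratios) and Sesn2 (0.02, equal sums). In the effect from day 1 to 3, median-of-ratios scaling gave -0.01 for Mdm2, -0.30 for Trp53inp1 and -0.13 for Sesn2, and quantile normalization gave -0.28 for Trp53inp1, -0.01 for Sesn2 and 0.12 for Ccng1. Ccng1, at -0.00 as reported, was 0.28 with equal sums, 0.00 with a pseudocount of 5 and -0.14 to 0.14 with 1 library left out. In the effect from day 1 to 21, equal sums gave 0.02 for Mdm2 and 0.10 for Sesn2, Trp53inp1 was -0.17 (median-of-ratios) and -0.03 (quantile), and Sesn2 ran from -0.22 to 0.09 with 1 library left out. From day 1 to 3 in UIR kidneys Mdm2 was -0.37 (median-of-ratios), -0.06 (quantile), -0.14 (weights) and -0.10 to 0.11 with 1 library left out, and Ccng1 was -0.10 (median-of-ratios). Leaving out 1 library at day 1 gave -0.33 to 0.26 for Phlda3 and -0.25 to 0.06 for Sesn2. The cause was not tested.

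No pairing by replicate number was seen, as deviations of equally numbered UIR and sham kidneys from their group means correlated at -0.07 to 0.11. With 3 libraries a group, this cannot exclude that equally numbered kidneys were handled together. With the replicate block, 4, 9 and 9 genes were called at days 1, 3 and 21, as without it. Against later sham kidneys 7 were called at day 1 under the block (8 without it). From day 1 to day 3 in UIR kidneys the block ended the Trp53inp1 call (-0.33, limma adjusted p = 0.06). Sesn2 was called under it in that contrast (-0.28, 0.04) and in the effect from day 1 to 3 (0.41, 0.038). The stricter filter removed Psrc1, so it has no value there. Depth is unknown, so no counting error could be given, and 3 libraries a group limit the precision.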
